A study of Mus musculus with 6 samples.

Results

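A set of 10 genes of G1 control was followed in RNA-seq values of BMDMs (macrophages that M-CSF drives out of cultured bone marrow), namely the D-type cyclins *Ccnd1*, *Ccnd2* and *Ccnd3*, their kinases *Cdk4* and *Cdk6*, the CDK inhibitors *Cdkn1a*, *Cdkn1b* and *Cdkn2c*, the transcription factor *Myc* and the pocket protein *Rb1*. They were chosen by symbol for their known roles and make up 10 of the 55335 genes in the table, each with a single row. The study compared 3 libraries whose BMDMs had met *Cd177* WT neutrophils, by their label, with 3 whose BMDMs had met *Cd177* KO neutrophils, to see what neutrophils that lack this surface protein do to macrophages. All BMDMs carried the WT genotype, were grown for 7 days with 25 ng/ml M-CSF and met neutrophils for 24 h, and the neutrophils came from spinal cord lesions at 3 days post-injury (dpi) in *Cd177* WT or *Cd177*-/- adult male mice. Macrophages were recovered by sorting Ly6G- cells, and neither the labels nor the methods say how many animals or cultures stand behind a library, so p-values measure the spread between these libraries.

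A cell in G1 enters S phase when D-type cyclins, induced by growth factors such as M-CSF, activate CDK4 and CDK6, which phosphorylate the retinoblastoma protein and free E2F factors to switch on replication genes. The inhibitors set the threshold: the INK4 proteins, such as p18 from *Cdkn2c*, bind CDK4 and CDK6 directly, while the Cip/Kip proteins p21 (*Cdkn1a*) and p27 (*Cdkn1b*) hold cyclin E-CDK2 in check. MYC, an early target of growth factor signalling, raises cyclin D and kinase transcripts and represses inhibitors, and macrophages that interferon or endotoxin activates stop cycling.

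Levels are given in FPKM, fragments scaled to transcript length and library total, as the authors deposited them. Differences are log2 fold changes on the log2(FPKM + 0.5) scale, libraries labelled KO against libraries labelled WT, with p-values from limma adjusted by the Benjamini-Hochberg method over all 13367 genes whose mean reached 0.5 FPKM, and a gene was called at an adjusted p-value under 0.05. *Cd177* itself had 0.309 to 0.544 FPKM under the WT label and 1.79 to 2.28 FPKM under the KO label. The knockout lay in the neutrophils and not in the sequenced macrophages. Neutrophil transcripts were also present in these libraries, with a higher sum under the KO label, as given below. The source of the *Cd177* values was not tested, so this level was not used to check the labels. Directions are given between libraries as labelled. The macrophage genes *Adgre1* and *Csf1r* had at least 217.7 and 231.7 FPKM in every library, and of 10 macrophage markers 3 were called higher and 2 lower, with sums of 6745 to 8117 FPKM under the WT label and 7549 to 8243 FPKM under the KO label. Beside this and the marker counts below, 27.1% of all tested genes were called higher and 10.5% lower. The higher ones were *Adgre1*, *Mertk* and *Mrc1*, and the lower ones were *Fcgr1* and the endotoxin co-receptor *Cd14*. *Mrc1* had 26.3 to 29.4 FPKM under the WT label and 213 to 225 FPKM under the KO label. *Cd14* had 911 to 1182 FPKM under the WT label and 93.7 to 109 FPKM under the KO label. The summed level of 16 neutrophil markers was 202 to 262 FPKM under the WT label and 557 to 572 FPKM under the KO label, with 10 of 12 tested markers higher and 1 lower. *Ly6g*, which defines the sort, was listed at 0 under the WT label and at 0.403 to 0.660 FPKM under the KO label. Of 11 B-lineage markers the 4 that were tested were higher, and the sum went from 10.8 to 11.2 FPKM up to 29.99 to 34.8 FPKM. *Ighm* had 0.0573 to 0.390 FPKM under the WT label and 9.43 to 10.5 FPKM under the KO label. *Cd79b* had 0.654 to 1.007 and 3.55 to 4.87 FPKM, yet *Pax5*, a defining factor of the lineage, stayed at or below 0.0166 FPKM. *Ighm* and the neutrophil markers *Cxcr2* and *Cebpe* passed the filter only through the KO label, so their direction was largely set beforehand. Of 6 T-cell markers, only *Cd4* was tested and it was higher, *Cd3d* was listed at 0 throughout, and the sum was 1.81 to 2.35 FPKM against 5.55 to 7.10 FPKM. Of 7 spinal cord markers, only *Mbp* was tested and it was not called, *Aqp4*, *Snap25* and *Mog* were listed at 0, and the sum was 4.66 to 5.94 FPKM against 5.81 to 7.08 FPKM. The part of other cells in the values below was not tested, and in such bulk RNA fewer cells of a type and less RNA per cell cannot be told apart.

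All 10 genes passed the filter on low values. With limma, 6 of the 10 genes were called higher under the KO label, namely *Ccnd1*, *Ccnd2*, *Cdk6*, *Cdkn1b*, *Cdkn2c* and *Rb1*, where 27.1% of all tested genes were called higher. None was called lower, where 10.5% of all tested genes were, and 2 of the 10 (*Cdkn1a* and *Myc*) had an unadjusted p-value under 0.05 without being called. The median log2 fold change of the 10 genes was 0.57, and that of all tested genes was 0.19. That general shift depends on how libraries are scaled: with median-of-ratios scaling, which divides each library by its median ratio to the genes' geometric means, the median of all genes was -0.01, 15.4% of genes were called higher and 16.9% lower, and of the 10 genes *Ccnd1*, *Cdk6*, *Cdkn2c* and *Rb1* were called higher and *Cdkn1a* lower. Under the threshold of the study's methods, a fold above 2 with an unadjusted p-value under 0.05, *Cdk6* and *Cdkn2c* were higher and no gene of the 10 was lower, where 6.68% and 4.43% of all tested genes were. Libraries of the 2 labels kept apart without overlap in 9 of the 10 genes, with *Ccnd3* the exception, and in 51.9% of all tested genes.

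**Figure D1:**
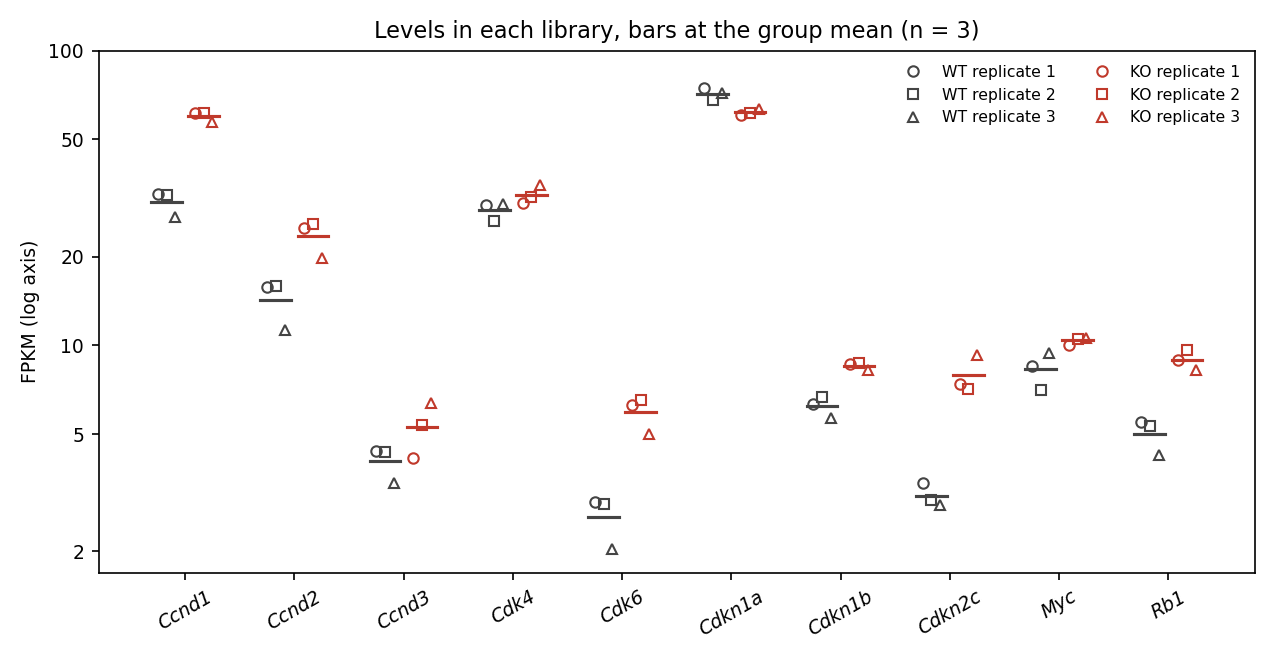
FPKM of the 10 genes in each library on a log axis, with circles, squares and triangles for replicates 1, 2 and 3 (black, labelled WT; red, labelled KO) and bars at the group means. *Ccnd1* sat at 27.3 to 32.7 FPKM in black and 57.2 to 61.5 FPKM in red, and *Cdkn1a* was the one gene whose red points lay below its black ones. The triangles of *Ccnd1*, *Ccnd2*, *Cdk6*, *Cdkn1b* and *Rb1* were the lowest of each colour.

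The D-type cyclins, the regulatory subunits that carry the growth factor signal, were higher under the KO label for 2 of 3 genes. *Ccnd1* (cyclin D1, ENSMUSG00000070348, chromosome 7 from 144929931 to 144939925, minus strand, GENCODE M21 on GRCm38) had 32.7, 32.3 and 27.3 FPKM under the WT label and 61.4, 61.5 and 57.2 FPKM under the KO label. Every library labelled KO lay well above every library labelled WT. The means went from 30.8 ± 3.00 to 60.0 ± 2.42 FPKM (SD over 3 libraries per label), a log2 fold change of 0.96 (limma, SE 0.10, adjusted p = 0.000454) and 0.77 above the median of all genes. *LTO1*, which overlaps 1100 exonic bases of *Ccnd1* on the opposite strand, had 1.14 to 1.90 FPKM over all libraries. *Ccnd2* (cyclin D2, ENSMUSG00000000184, chromosome 6 from 127125162 to 127152193, minus strand) had 15.8, 15.9 and 11.2 FPKM under the WT label and 25.0, 25.8 and 19.8 FPKM under the KO label. Replicate 3 was the lowest of both groups, and the groups did not overlap. The log2 fold change of *Ccnd2* was 0.71 (limma, SE 0.17, adjusted p = 0.0164), and the call was lost with median-of-ratios scaling (0.48, adjusted p = 0.0512), without KO replicate 1 (adjusted p = 0.0613) and without KO replicate 2 (adjusted p = 0.0620). *Ccnd3* (cyclin D3, ENSMUSG00000034165, chromosome 17 from 47505051 to 47599691, plus strand) had 4.39, 4.36 and 3.399 FPKM under the WT label and 4.14, 5.35 and 6.36 FPKM under the KO label. *Bysl*, on the opposite strand, shares 361 exonic bases with it and had 6.44 to 7.54 FPKM over all libraries. In *Ccnd3* the KO replicate 1 value fell inside the range of the libraries labelled WT, and with a log2 fold change of 0.34 (95% interval -0.07 to 0.74, adjusted p = 0.169 in limma) it was not called. Its value was 0.20 without KO replicate 3, 0.10 without both replicate 3 libraries and 0.13 with median-of-ratios scaling.

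Because FPKM is per length, the 3 cyclins were set beside each other within a library, with a limit in replicate 3 for long transcripts that is given below. Their summed level was 49.1 ± 6.21 FPKM under the WT label and 88.9 ± 4.85 FPKM under the KO label (SD over 3 libraries per label). *Ccnd1* made up 61.8%, 61.5% and 65.1% of the sum under the WT label and 67.8%, 66.4% and 68.7% under the KO label, so the groups did not overlap but lay close. *Ccnd2* held 29.0% ± 1.88 and 26.4% ± 2.33 (SD over 3 libraries per label), with overlap. *Ccnd3* held between 8.10% and 8.31% under the WT label and 4.56%, 5.78% and 7.63% under the KO label, all lower but spread widely. These shares are descriptions without a test.

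**Figure D2:**
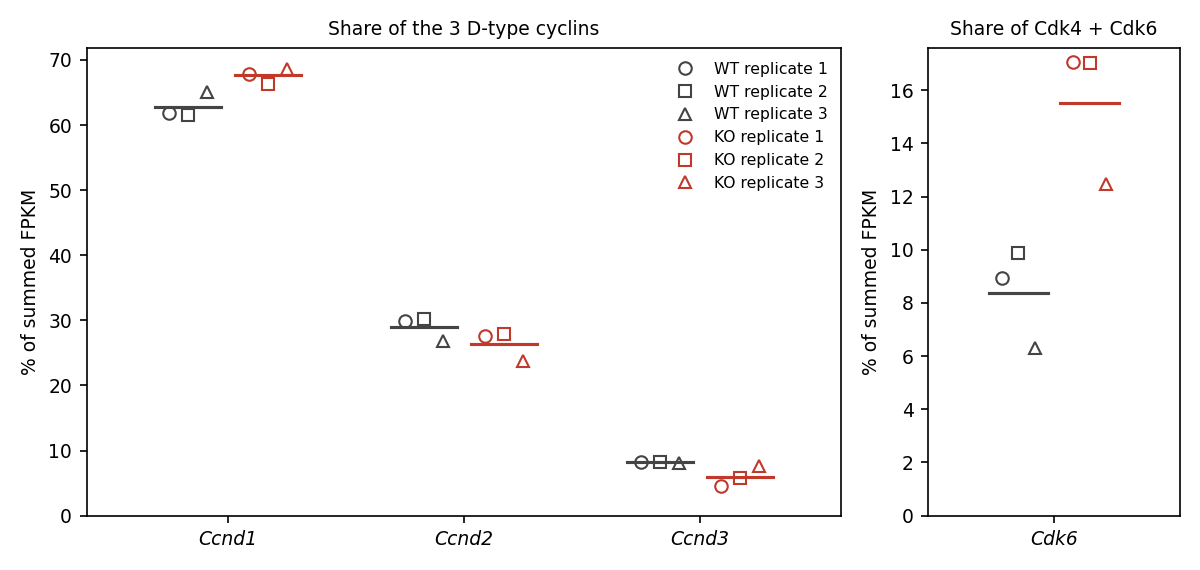
Share of each D-type cyclin in the summed FPKM of the 3 (left) and of *Cdk6* in *Cdk4* + *Cdk6* (right), in percent from 0, with 1 point per library and bars at the group means. *Ccnd1* led in every library at 61.5% to 68.7%, and the *Cdk6* share was 6.32% to 9.88% under the WT label and 12.5% to 17.1% under the KO label.

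The catalytic partners of these cyclins differed in their values. *Cdk6* (ENSMUSG00000040274, chromosome 5 from 3341485 to 3531008, plus strand), the kinase that is prominent in blood cells, had 2.94, 2.89 and 2.03 FPKM under the WT label and 6.28, 6.54 and 4.99 FPKM under the KO label. The groups were far apart, with replicate 3 lowest in both. Its mean went from 2.62 ± 0.512 to 5.94 ± 0.831 FPKM (SD over 3 libraries per label), a ratio of 2.27 and a log2 fold change of 1.05 (limma, SE 0.16, adjusted p = 0.00298). *Cdk4* (ENSMUSG00000006728, chromosome 10 from 127063534 to 127067920, plus strand) was the more abundant kinase, with 29.9, 26.3 and 30.1 FPKM under the WT label and 30.5, 31.8 and 35.0 FPKM under the KO label. The groups only just failed to overlap. The log2 fold change of *Cdk4* was 0.17 (95% interval -0.05 to 0.39, adjusted p = 0.200 in limma), which is -0.02 from the median of all genes, and it turned to -0.06 with median-of-ratios scaling and -0.04 with upper-quartile scaling. *Cdk6* held 8.38% ± 1.85 of the sum of both kinases under the WT label and 15.5% ± 2.64 under the KO label (SD over 3 libraries per label), a description with no overlap. *Cdk4* shares 641 exonic bases with *Tspan31* on the opposite strand, which had 51.3 to 62.6 FPKM under the WT label and 42.0 to 46.4 FPKM under the KO label, and whether the counting used strand is not given in the sources used here.

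Promoter windows of 300 bases, from 250 bases before the annotated start, were at hand from RefSeq (GRCm38.p6) for 6 of the 10 genes in 9 windows, *Ccnd1*, *Ccnd2*, *Myc* and *Rb1* not among them. Each was searched on both strands for the E-box CACGTG, the letters that MYC with its partner MAX binds and that read the same on both strands, and for the E2F letters TTTCCCGC, TTTCGCGC, TTTGCCGC and TTTGGCGC. The E-box letters stood in 3 of the 9 windows, and in 7.15% of all 32851 windows of this length. The *Cdk4* window held 4 matches, starting at -172, -118, -98 and -11 from the annotated start, the *Cdk6* window 1 at -220 and the second of the *Cdkn2c* windows 1 at 34. The E2F letters stood in none of the 9 windows and in 2.26% of all windows. These 3 windows are shown because they set a gene with no call (*Cdk4*) beside a pair that was called (*Cdk6* and *Cdkn2c*), all with the MYC letters, which are in capitals. The windows are chr10:127063285-127063584 on the plus strand for *Cdk4*, chr5:3343643-3343942 on the plus strand for *Cdk6* and chr4:109665323-109665622 on the minus strand for *Cdkn2c*.
Cdk4: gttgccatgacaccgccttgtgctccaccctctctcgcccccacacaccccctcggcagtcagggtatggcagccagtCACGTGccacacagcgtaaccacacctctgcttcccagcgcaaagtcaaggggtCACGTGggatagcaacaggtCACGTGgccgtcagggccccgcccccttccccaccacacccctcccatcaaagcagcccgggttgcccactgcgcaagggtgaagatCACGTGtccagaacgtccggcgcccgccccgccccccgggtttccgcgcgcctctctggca
Cdk6: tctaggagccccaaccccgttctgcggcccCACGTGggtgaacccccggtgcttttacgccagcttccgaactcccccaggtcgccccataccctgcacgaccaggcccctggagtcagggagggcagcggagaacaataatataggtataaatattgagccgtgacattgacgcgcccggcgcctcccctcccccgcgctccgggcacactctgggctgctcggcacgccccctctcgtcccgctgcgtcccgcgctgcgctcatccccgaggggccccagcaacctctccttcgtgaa
Cdkn2c: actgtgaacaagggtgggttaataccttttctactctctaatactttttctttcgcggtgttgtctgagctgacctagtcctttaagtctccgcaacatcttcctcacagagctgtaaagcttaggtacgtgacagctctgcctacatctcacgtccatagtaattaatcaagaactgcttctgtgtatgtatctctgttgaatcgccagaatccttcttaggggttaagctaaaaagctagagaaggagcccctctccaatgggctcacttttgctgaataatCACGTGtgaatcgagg

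Among the inhibitors, *Cdkn2c* (ENSMUSG00000028551, chromosome 4 from 109660876 to 109667189, minus strand), which encodes the INK4 protein p18, had the largest log2 fold change of the 10 genes. It had 3.401, 2.99 and 2.87 FPKM under the WT label and 7.42, 7.10 and 9.29 FPKM under the KO label. The lowest library labelled KO was still more than 3 FPKM above the highest labelled WT. The mean went from 3.09 ± 0.279 to 7.93 ± 1.181 FPKM (SD over 3 libraries per label), a ratio of 2.57 and a log2 fold change of 1.23 (limma, SE 0.13, adjusted p = 0.000531). *Cdkn1b* (p27, ENSMUSG00000003031, chromosome 6 from 134920401 to 134925513, plus strand) had 6.32, 6.68 and 5.66 FPKM under the WT label and 8.62, 8.72 and 8.25 FPKM under the KO label. The libraries labelled KO were close to each other and all above the others. Its log2 fold change was 0.43 (limma, SE 0.09, adjusted p = 0.0117), and the call was lost with median-of-ratios scaling (0.21, adjusted p = 0.104), with upper-quartile scaling (0.23, adjusted p = 0.0776), without KO replicate 1 (adjusted p = 0.0523) and without KO replicate 2 (adjusted p = 0.0536).

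*Cdkn1a* (p21, the Cip/Kip inhibitor best known as a p53 target, ENSMUSG00000023067, chromosome 17 from 29090976 to 29100727, plus strand) had the highest mean of the 10 genes under both labels and was the only one with a negative log2 fold change. It had 75.0, 68.1 and 71.6 FPKM under the WT label and 60.6, 61.3 and 63.5 FPKM under the KO label. All libraries labelled KO lay below all labelled WT, by a small step. The means were 71.6 ± 3.42 and 61.8 ± 1.503 FPKM (SD over 3 libraries per label), and the log2 fold change of -0.21 (95% interval -0.39 to -0.03) had an adjusted p-value of 0.0680 from limma. Set against the median of all genes it was -0.40, and it was called with median-of-ratios scaling (-0.44, adjusted p = 0.00794), with upper-quartile scaling (-0.42, adjusted p = 0.0112) and without both replicate 3 libraries (-0.23, adjusted p = 0.0348).

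*Rb1* (ENSMUSG00000022105, chromosome 14 from 73183673 to 73325822, minus strand) encodes the pocket protein that the cyclin D kinases inactivate. It had 5.49, 5.35 and 4.23 FPKM under the WT label and 8.91, 9.62 and 8.24 FPKM under the KO label. The groups were clearly separate, again with replicate 3 the lowest of each. The log2 fold change was 0.78 (limma, SE 0.12, adjusted p = 0.00320). *Rcbtb2* and *Lpar6*, which lie on the opposite strand and share 488 and 408 exonic bases with *Rb1*, had 9.002 to 10.5 and 12.2 to 13.9 FPKM under the WT label and 18.3 to 19.4 and 17.002 to 18.7 FPKM under the KO label. *Myc* (ENSMUSG00000022346, chromosome 15 from 61985391 to 61990374, plus strand) had 8.49, 7.07 and 9.45 FPKM under the WT label and 10.03, 10.5 and 10.6 FPKM under the KO label. The libraries labelled KO were tight and above the others, which were spread. With a log2 fold change of 0.31 (95% interval 0.03 to 0.59, adjusted p = 0.0781 in limma) *Myc* was not called. Its value was 0.09 with median-of-ratios scaling and 0.20 without WT replicate 2 (adjusted p = 0.181), and it was called without WT replicate 3 (0.40, adjusted p = 0.0206), without both replicate 3 libraries (0.39, adjusted p = 0.0361) and with all libraries rescaled to the same total (0.33, adjusted p = 0.0439).

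Replicate 3 of each label stood apart in genes with long transcripts. In the 2537 tested genes whose longest annotated transcript has at least 5000 bases, replicate 3 differed from the mean of replicates 1 and 2 by a median of -0.34 on the log2 scale under the WT label and -0.17 under the KO label. In the 4131 genes under 2000 bases these medians were 0.23 and 0.08. *Cdk6* and *Ccnd2*, whose longest transcripts have 11525 and 6330 bases, differed by -0.43 and -0.48 in WT replicate 3 and by -0.33 and -0.35 in KO replicate 3. *Myc*, with 2338 bases, differed by 0.27 and 0.05. Without both replicate 3 libraries the log2 fold changes of *Cdk6* and *Ccnd2* were 1.02 and 0.67, and between the replicate 3 libraries alone they were 1.12 and 0.79. The shares above set *Cdk6* beside *Cdk4* (2053 bases) and *Ccnd2* beside *Ccnd1* (3740 bases). The *Cdk6* and *Ccnd2* shares were lowest in replicate 3 of each label. The part of transcript length in these shares was not tested.

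**Figure D3:**
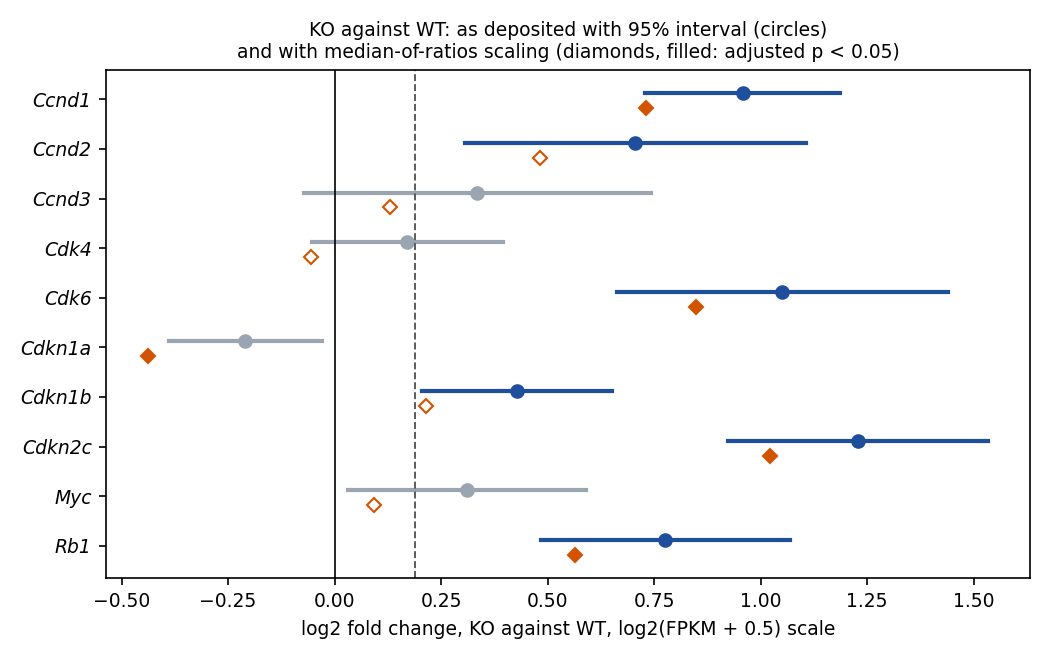
Log2 fold change of each gene, libraries labelled KO against libraries labelled WT, with its 95% interval (circles; blue, adjusted p-value under 0.05; grey, not called) and with median-of-ratios scaling (diamonds; filled, adjusted p-value under 0.05). The solid line marks 0 and the dashed line the median of all tested genes at 0.19; *Cdkn2c* at 1.23 and *Cdk6* at 1.05 lay farthest to the right, and *Cdkn1a* at -0.21 was the one circle left of 0.

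The order of the mean levels was led by *Cdkn1a* in both groups. In the libraries labelled WT it was followed by *Ccnd1* and *Cdk4*, whose ranges overlapped, then *Ccnd2*, *Myc* and *Cdkn1b*, each apart from its neighbours, and then *Rb1*, *Ccnd3*, *Cdkn2c* and *Cdk6*, in which each range touched the next. In the libraries labelled KO *Ccnd1* overlapped with *Cdkn1a*, at 57.2 to 61.5 against 60.6 to 63.5 FPKM, and was the higher of both in replicates 1 and 2. *Cdk4*, *Ccnd2* and *Myc* followed, each apart from its neighbours, then *Rb1*, *Cdkn1b* and *Cdkn2c* with overlapping ranges, and *Cdk6* and *Ccnd3*, which overlapped each other at 4.99 to 6.54 and 4.14 to 6.36 FPKM. The genes whose profile over the 6 libraries was nearest to that of *Cdkn2c* were *B3gnt7*, *Cysltr1* and *Tk1*. Their root mean square differences from *Cdkn2c* were 0.0595, 0.0610 and 0.0697 between centred log2 values. *B3gnt7* had 0.236 to 0.314 FPKM under the WT label and 1.14 to 1.47 FPKM under the KO label. It passed the filter only through the KO label, so its direction was largely set beforehand. Fold changes of such weakly expressed genes come out too small on the log2 scale used. The nearness of *B3gnt7* to *Cdkn2c* was therefore read on that scale only.

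The rest of the G1 machinery was described from a list of 30 other regulators, of which 29 were tested. In limma 10 of them were higher and none was lower, with a median log2 fold change of 0.28 beside 0.19 for all tested genes, of which 27.1% were called higher and 10.5% lower. With median-of-ratios scaling 6 were higher and 3 lower, where 15.4% and 16.9% of all tested genes were. *Tfdp2* was under the filter, at 0.141 to 0.396 FPKM. *E2f7*, 1 of the 10 called higher, had a mean of 0.235 FPKM under the WT label and 0.784 FPKM under the KO label. It passed the filter only through the latter, so its direction was largely set beforehand. Inhibitors were among those that rose. *Cdkn1c* (p57, the third Cip/Kip inhibitor) had 3.11, 2.61 and 3.35 FPKM under the WT label and 10.6, 8.48 and 13.8 FPKM under the KO label, a log2 fold change of 1.68 (limma, adjusted p = 0.000635). *Cdkn2b* (the INK4 protein p15) went from 5.16 ± 0.228 to 10.9 ± 1.503 FPKM (SD over 3 libraries per label), a log2 fold change of 1.00 (limma, adjusted p = 0.000821). *Cdkn2a*, a locus that gives both p16 and p19Arf and whose transcripts a gene-level value cannot tell apart, had 6.47, 5.96 and 10.3 FPKM under the WT label and 13.6, 10.995 and 16.4 FPKM under the KO label. Its log2 fold change of 0.83 passed (limma, adjusted p = 0.0277), but not with median-of-ratios, upper-quartile or quantile scaling or with no filter (adjusted p between 0.0519 and 0.104) and not without WT replicate 1, WT replicate 2, KO replicate 1 or KO replicate 3 (adjusted p between 0.0778 and 0.0863). *Cdkn2d* (p19Ink4d) overlapped between the groups and was not called (log2 fold change 0.45, adjusted p = 0.117 in limma).

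The pocket proteins other than *Rb1* gave different values. *Rbl2* (p130, typical of resting cells) went from 3.53 ± 0.573 to 7.70 ± 0.325 FPKM (SD over 3 libraries per label), a log2 fold change of 1.04 (limma, adjusted p = 0.000949), whereas *Rbl1* (p107) had a log2 fold change of 0.25 with overlapping groups (adjusted p = 0.276). Without WT replicate 2, *Rbl1* was just called (0.42, adjusted p = 0.0499). *Ccne2*, a cyclin E gene that acts after cyclin D, had 1.38, 1.82 and 2.07 FPKM under the WT label and 2.99, 3.15 and 3.95 FPKM under the KO label and rose by 0.78 on the log2 scale (limma, adjusted p = 0.00916), a call lost with quantile normalization (0.54, adjusted p = 0.0552). *Ccne1* had a log2 fold change of 0.31 and overlapped (adjusted p = 0.139), and it was called without WT replicate 3 (0.43, adjusted p = 0.0251) and without both replicate 3 libraries (0.37, adjusted p = 0.0398). *Cdk2*, the kinase of cyclin E, had 3.50, 3.57 and 3.60 FPKM under the WT label and 5.12, 5.43 and 2.53 FPKM under the KO label. KO replicate 3 alone fell below the libraries labelled WT, and without it *Cdk2* was called (log2 fold change 0.51, adjusted p = 0.0167 in limma), against 0.20 (adjusted p = 0.575) with all libraries and -0.01 with median-of-ratios scaling.

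Of 11 partners and antagonists of MYC, 8 were tested, 2 were higher and 1 was lower in limma, with a median of -0.10 beside 0.19 for all tested genes. These counts lie near the shares over all tested genes, 27.1% higher and 10.5% lower. With median-of-ratios and with upper-quartile scaling 1 was higher and 3 were lower. The shares over all tested genes moved as well, to 15.4% higher and 16.9% lower with median-of-ratios scaling. *Mxd4*, which competes with MYC for MAX, went from 4.55 ± 1.68 to 14.4 ± 3.68 FPKM (SD over 3 libraries per label), a log2 fold change of 1.60 (limma, adjusted p = 0.00676). *Mnt*, another MAX-binding repressor, rose by 0.72 on the log2 scale (adjusted p = 0.0313) but lost the call under 3 other scalings and with no filter (adjusted p between 0.0537 and 0.0867), without KO replicate 1 (adjusted p = 0.0997) and without KO replicate 2 (adjusted p = 0.10002). *Mlx* had 15.2, 17.3 and 13.5 FPKM under the WT label and 10.5, 5.27 and 8.64 FPKM under the KO label and fell by 0.92 on the log2 scale (adjusted p = 0.0225), a call that was lost with no filter (adjusted p = 0.0604), without WT replicate 1 (adjusted p = 0.0620) and without WT replicate 2 (adjusted p = 0.0706). *Mycn*, *Mycl* and *Mxd3* were under the filter. *Mycl* had 0.161 to 0.180 FPKM under the WT label and 0.764 to 0.794 FPKM under the KO label.

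*Cdkn1a* was set beside 21 other p53 targets. In limma 14 of the 21 were higher, 1 was lower and 6 were not called, with a median log2 fold change of 0.62. Of all tested genes 27.1% were higher and 10.5% lower, with a median of 0.19. With median-of-ratios scaling 11 of the 21 were higher and 2 lower, where 15.4% and 16.9% of all tested genes were. *Sesn1*, a stress-induced regulator of mTORC1, had 3.88, 3.07 and 4.07 FPKM under the WT label and 39.0, 39.8 and 43.8 FPKM under the KO label, a log2 fold change of 3.31 (adjusted p = 5.02e-06). *Bbc3*, which encodes the pro-apoptotic PUMA, and *Trp53inp1* rose by 1.61 and 1.39 on the log2 scale (limma, adjusted p = 0.000135 and 9.91e-05). *Mdm2*, which encodes the ubiquitin ligase of p53, was the gene called lower with the values as deposited. Its mean was 43.0 ± 0.953 FPKM under the WT label and 25.4 ± 0.227 FPKM under the KO label, for a log2 fold change of -0.75 (limma, adjusted p = 0.000345). *Cdkn1a*, at -0.21 and not called, had a negative log2 fold change like *Mdm2*, while 17 of the 21 targets had a positive one.

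Downstream of the 10 genes, replication and S-phase transcripts were higher under the KO label in 21 of 30 genes in limma and lower in none, with a median of 0.71. Of all tested genes 27.1% were higher and 10.5% lower, with a median of 0.19. With median-of-ratios scaling 17 of the 30 were higher and none was lower, where 15.4% and 16.9% of all tested genes were. *Ccna2* (cyclin A2) went from 2.70 ± 0.0867 to 8.77 ± 0.708 FPKM (SD over 3 libraries per label), a log2 fold change of 1.53 (limma, adjusted p = 5.72e-05). *Mcm5*, a subunit of the replicative helicase, and *Tk1*, thymidine kinase, rose by 1.32 and 1.31 on the log2 scale (limma, adjusted p = 5.50e-05 and 0.000973). All 12 markers of cycling cells were called higher, where 27.1% of all tested genes were. Their summed level was 36.1 to 38.4 FPKM under the WT label and 82.8 to 89.7 FPKM under the KO label. *Mki67* had 4.71, 4.50 and 3.04 FPKM in the former and 9.48, 9.77 and 6.92 FPKM in the latter. These markers were higher under the same label as *Ccnd1*, *Cdk6*, *Cdkn1b* and *Cdkn2c*, while *Cdkn1a* had a negative log2 fold change, and their part in the values of the 10 genes was not tested.

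**Figure D4:**
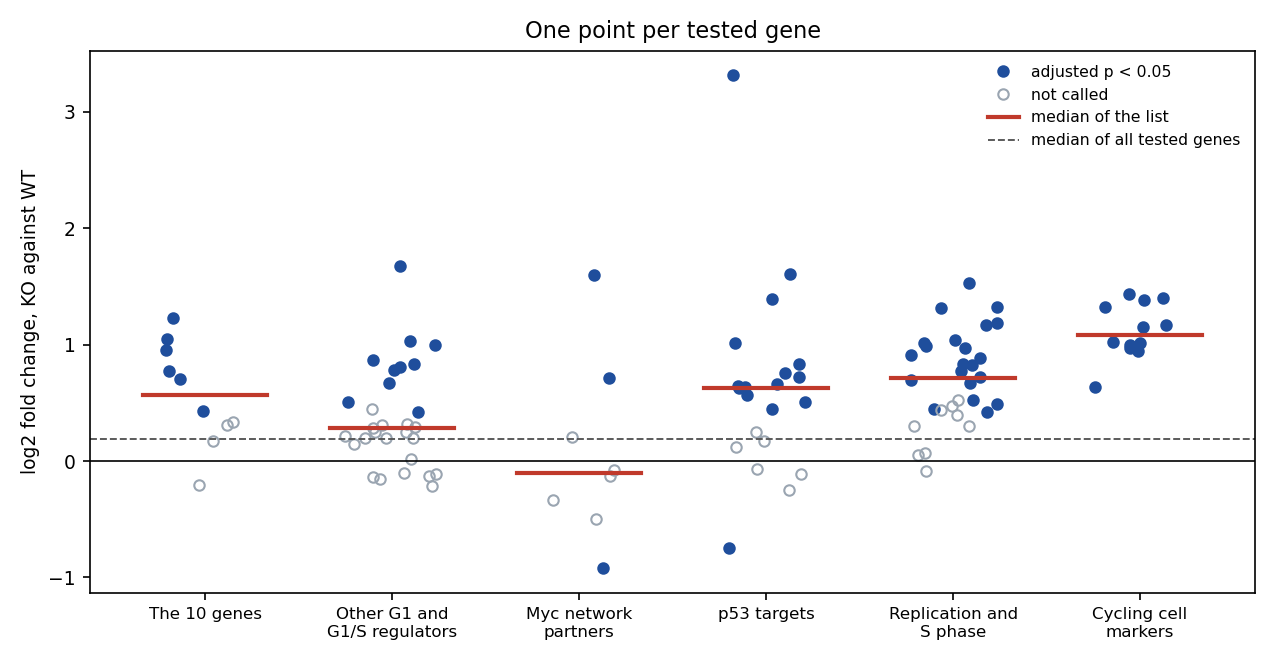
Log2 fold change of every tested gene of 6 lists, libraries labelled KO against libraries labelled WT (filled blue, adjusted p-value under 0.05; open grey, not called), with the median of each list in red and the median of all tested genes at 0.19 as a dashed line. The medians were 0.57 for the 10 genes, 0.28 for other G1 regulators, -0.10 for MYC partners, 0.62 for p53 targets, 0.71 for replication genes and 1.09 for cycling cell markers.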

How the data were processed

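RNA-seq values of 6 libraries were used, 3 per label, with groups and replicate numbers taken from the sample titles. The table the authors deposited holds an FPKM value for each of 55335 mouse Ensembl genes in each library. The submitters' processing notes name fastp 0.17.1, HISAT2 2.1.0, DESeq2 1.18.1 and R 3.4.3, and the counting tool, annotation and genome build are not given in the sources used here. Labels and methods name different RNA reagents, library kits and sequencers for these libraries. FPKM scales each library to its total, so a change in abundant genes moves all others, and the column sums ran from 302532 to 340717.

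Depth was read from the steps of low values in 34186 genes with 1 annotated transcript. Between 39.7% and 43.9% of values lay within 0.1 of a whole multiple, where an even spread gives 20%, so reads were not recovered and no count test was run. If a step is 1 fragment, the depth was 17579236 to 20183664 fragments per library.

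Symbols, positions and transcript lengths came from GENCODE M21 (GRCm38), which matched 99.7% of the genes. log2(FPKM + 0.5) was fitted with limma 3.58.1 in R 4.3.3 (eBayes with trend, two-sided, no covariates) over 13367 genes whose mean reached 0.5 FPKM. Fold changes of weakly expressed genes come out too small on this scale. The fit was tested on simulated data with independent noise and with no general shift or transcript length effect. That test therefore does not cover these features of the data. Other steps used Python 3.11.15, pandas 2.3.3 and matplotlib 3.10.9. Alternatives were pseudocounts, filters, scalings, a robust variance, the replicate number as a block and left-out libraries. Leaving out both replicate 3 libraries was added after the data were seen. The 10 genes and the gene lists were chosen with earlier results of these data known. Named from the lists were up to 3 called genes per direction with the largest change and no overlap, the cyclins, CDK, inhibitors and pocket proteins of the G1 list, the 3 nearest profiles to the gene with the largest change (clone identifiers left out), and markers. *Mycl*, *Tfdp2*, *E2f7*, the overlapping genes and the markers *Ighm*, *Cd79b*, *Cxcr2*, *Cebpe*, *Cd14*, *Fcgr1*, *Mertk* and *Mrc1* were named after their values were seen.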

Additional observations from a re-analysis of the deposited data

How the results depend on the processing

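In limma 6 of the 10 genes were called in the fit as reported and 4 to 7 without 1 library. *Cdk4* changed sign, to -0.056 with median-of-ratios and -0.041 with upper-quartile scaling, since these set the median of all genes near 0. Under median-of-ratios scaling 47.7% of called genes were higher, against 72.0%. Among the other G1 regulators 10 were called as reported, 6 with a mean of at least 5 FPKM, 17 without both replicate 3 libraries and 5 to 14 without 1 library, with 5 without KO replicate 1. With a mean of at least 5 FPKM, where fewer genes are tested and *Ccnd3* and *Cdk6* are not, 9 p53 targets and 11 replication genes were called, against 15 and 21. MYC partners gave 3 calls in 8 tested genes, and 2 to 5 without 1 library. The 5 calls came without WT replicate 3, where 10 were tested. Without any 1 library labelled WT, *Mycl* and *Mxd3* passed the filter through their values under the KO label and were tested too. Under the study's threshold 2 of the 10 genes passed, 1 with a pseudocount of 1, a mean of at least 5 FPKM, median-of-ratios, upper-quartile or quantile scaling, and 1 to 3 without 1 library, with 1 without WT replicate 3 or KO replicate 2. The cause was not tested where none is given. Same-numbered libraries deviated from their group means with correlations of 0.116, 0.0360 and 0.264, and WT replicate 1 correlated best with KO replicate 2, while both replicate 3 libraries correlated best with each other, so the numbers were not taken as pairs throughout. With a replicate block 6 of the 10 genes were called, *Ccnd2* had an SE of 0.070 against 0.17, and *Ccne1* was called (adjusted p = 0.0437); over all genes 4253 were higher and 1681 lower, against 3619 and 1408. Depth and counting error of single values cannot be had from FPKM.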
